A study of Mus musculus with 2 samples.

Results

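The genes described here are 10 members of BMP and TGF-beta signalling. They were chosen as a list of gene names and not by a rule on measured values, but with earlier results of these data known. They comprise the ligand genes Bmp2, Bmp4, Bmp7 and Tgfb2, the receptor genes Tgfbr1 and Tgfbr2, the signal transducer Smad3, and the inhibitor genes Smad7, Grem1 and Bambi. They are 10 of the 21883 protein-coding genes on the mouse chromosomes of the annotation. A peak was given to a gene when its summit lay inside the gene, or within 100 kb of it and nearest to its end among protein-coding genes. By this rule the 10 genes held 99 of the 61210 peaks of the Brg1 cKO list and 133 of the 77529 peaks of the control list.

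Open chromatin was measured by ATAC-seq, in which a transposase inserts sequencing adapters into accessible DNA. Brg1, encoded by Smarca4, is an ATPase of the BAF (SWI/SNF) chromatin remodelling complex. The Brg1 cKO library came from kidneys of genotype Brg1cKO/cKO at E18.5, and the control library from kidneys labelled WT control at the same age. Both were made from sorted tdTomato cells of the Wnt4 lineage, with 50000 cells per reaction. The cell type label of the control library reads only control, while its title names the Wnt4 lineage. The labels name neither the driver of the deletion nor its efficiency in the sorted cells, nor how many animals were used or pooled. Wnt4 is expressed as kidney mesenchyme turns into epithelium, so cells of this lineage contribute to nephrons. There was 1 library per genotype and thus no replicate spread, so no test between genotypes was made and every difference below is a difference between 2 libraries.

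TGF-beta and BMP ligands are secreted dimers that bring together type I and type II receptor kinases at the cell surface. The type I receptor phosphorylates Smad proteins, which enter the nucleus with Smad4 and regulate target genes. BMP7 maintains nephron progenitors in the mouse kidney, whereas TGF-beta signalling in kidney is best known for its part in fibrosis and in matrix production.

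As a check of the sorted cells, 9 of 10 nephron lineage genes had a peak within 1000 bp of a gene end in the Brg1 cKO list, and 9 of 10 in the control list, Cdh6 being without one in both. All 5 interstitial and all 5 endothelial genes had such a peak in both lists. Of 5 immune genes, 1 had one in the Brg1 cKO list and 3 in the control list, and of 5 erythroid genes 1 had one in each list. Of the 21883 protein-coding genes, 14851 had a peak within 1000 bp of a gene end in at least 1 list. Such peaks are thus common, and these counts cannot tell nephron lineage cells from interstitial or endothelial cells. Peaks of ATAC-seq do not show which cells of a mixture are open, and the part of other cell types in the results below was not tested. Smarca4 had 2 peaks in the Brg1 cKO list and 3 in the control list, which does not check the deletion, since open chromatin at the gene does not show whether its deleted part is missing. The lists hold no read counts, so the depth of each library is unknown.

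Fewer peaks were called at these genes in the Brg1 cKO library, and nearly all that were called there overlapped a control peak. Of the 99 Brg1 cKO peaks, 98 overlapped a control peak by at least 1 bp (99.0%, 94.5 to 100%). Of the 133 control peaks, 97 overlapped a Brg1 cKO peak (72.9%, 64.5 to 80.3%) and 36 did not. The ratio of peak numbers was 0.744, where it was 0.790 over the whole lists, and with only the 61210 most significant control peaks kept there were 99 Brg1 cKO and 104 control member peaks, a ratio of 0.952. Intervals are exact Clopper-Pearson 95% intervals and cover counting error only. Over all peaks, 5.92% of the Brg1 cKO list and 25.9% of the control list had no counterpart, so the share of control peaks without one at these genes lay near the background. In such a mixture, fewer cells with an open site and less opening per cell cannot be told apart.

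The bases covered followed the same order. Peaks of the 10 genes covered 146885 bases in the Brg1 cKO list and 181087 bases in the control list, a ratio of 0.811, where the ratio over all peaks was 0.844. Of the control bases, 23.6% were outside Brg1 cKO peaks, against 23.5% over the whole control list. Those bases fell into 23441 in control peaks without a counterpart and 19258 in uncovered parts of control peaks that had one. These uncovered parts made up 12.2% of the width of overlapped control peaks of these genes and 10.1% over the whole list.

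Among the genes, 8 of 10 had more control-only than Brg1 cKO-only peaks, and Bmp2 and Grem1 had none of either kind. Over protein-coding genes with at least 1 control peak, 43.9% had more control-only peaks, but most genes have few peaks. Among the 5135 genes with at least 5 control peaks it was 80.6%, beside 8 of 8 such genes here. None of the 8 was without a control-only peak, where 13.3% of the 5135 were. Every Brg1 cKO peak had a counterpart at 9 of the 10 genes, beside 86.3% of genes with a Brg1 cKO peak. More bases were covered in the Brg1 cKO list at Bmp2, Smad7 and Grem1, where 28.3% of genes with a peak in either list did so. Among genes with at least 5 control peaks this held for Smad7 alone of the 8, beside 13.7% of the 5135. Fewer than 50% of the control peaks had a counterpart at 3 of these 8 genes, Tgfb2, Tgfbr1 and Bambi, where 8.65% of the 5135 genes lay under that limit, which was set after the values were seen. With only the 61210 most significant control peaks kept, as many as the Brg1 cKO list holds, none of the 3 was under 50%, with 3 of 5 at Tgfb2, 4 of 5 at Tgfbr1 and 2 of 3 at Bambi. Tgfb2 was also at 50.0% with peaks of -log10 q of at least 2 alone and when any annotated gene could take a peak, and Bambi at 50.0% with summits within 50 kb. The median share with a counterpart was 70.2% over the 8 genes and 73.9% over the 5135. The median ratio of bases covered was 0.762 over the 8 genes and 0.810 over the 5135.

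**Figure D1:**
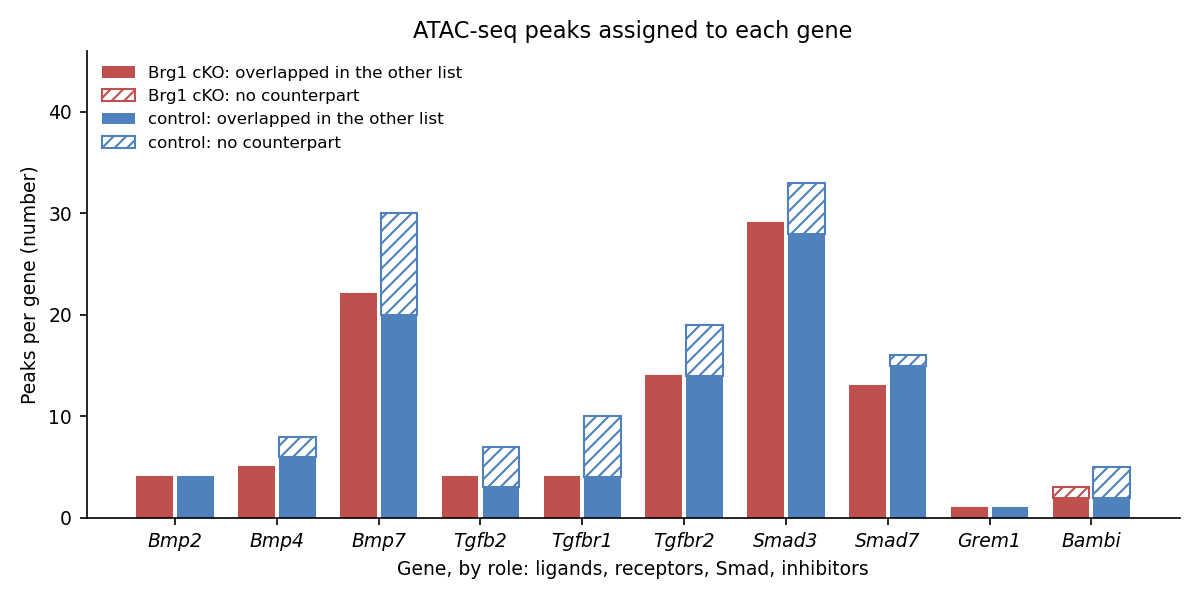
Number of ATAC-seq peaks assigned to each gene, with the Brg1 cKO library (red) left of the control library (blue); filled parts overlap a peak of the other list and hatched parts do not. The only hatched part in the Brg1 cKO list is 1 peak of Bambi, while 36 control peaks of 8 genes are hatched.

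The start sites of members that the promoter table holds were open in both libraries. RefSeq promoters of GRCm38.p6 (mm10) were on hand for 6 of the 10 members (Bmp4, Tgfb2, Tgfbr1, Tgfbr2, Smad3 and Grem1), and not for Bmp2, Bmp7, Smad7 and Bambi. At each of the 6 genes the 250 bases before the start nearest to the gene's 5′ end lay wholly inside a peak of the Brg1 cKO list and of the control list. Tgfbr1 has a second listed start 28710 bp inside the gene, and no peak of either list overlapped the 250 bases before it. That second window holds 1 SMAD box. The 4 promoters under a peak that hold a SMAD motif are shown because Smad proteins are the transducers of this pathway. Capitals mark CAGAC (the SMAD box) and GGCGCC (a GC-rich SMAD element), searched on both strands, 5′ to 3′ in the direction of the gene. The coordinates are chr1:186705990-186706239 (minus strand) for Tgfb2, chr4:47352972-47353221 (plus strand) for Tgfbr1, chr9:116175364-116175613 (minus strand) for Tgfbr2 and chr2:113758649-113758898 (minus strand) for Grem1.
Tgfb2: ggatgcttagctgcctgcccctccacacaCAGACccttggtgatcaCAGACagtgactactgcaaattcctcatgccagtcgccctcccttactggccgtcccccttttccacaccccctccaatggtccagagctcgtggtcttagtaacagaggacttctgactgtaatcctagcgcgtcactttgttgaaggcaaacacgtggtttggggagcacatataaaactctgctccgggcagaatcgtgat
Tgfbr1: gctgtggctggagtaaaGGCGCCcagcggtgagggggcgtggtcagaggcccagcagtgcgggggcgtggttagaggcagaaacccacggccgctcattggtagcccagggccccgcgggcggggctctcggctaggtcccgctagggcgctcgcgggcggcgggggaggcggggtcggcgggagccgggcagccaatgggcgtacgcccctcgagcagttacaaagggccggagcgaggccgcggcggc
Tgfbr2: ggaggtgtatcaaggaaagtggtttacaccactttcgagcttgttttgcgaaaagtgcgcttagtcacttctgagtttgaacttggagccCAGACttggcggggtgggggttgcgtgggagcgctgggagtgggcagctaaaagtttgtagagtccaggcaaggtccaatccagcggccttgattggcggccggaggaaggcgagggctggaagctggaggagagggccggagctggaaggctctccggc
Grem1: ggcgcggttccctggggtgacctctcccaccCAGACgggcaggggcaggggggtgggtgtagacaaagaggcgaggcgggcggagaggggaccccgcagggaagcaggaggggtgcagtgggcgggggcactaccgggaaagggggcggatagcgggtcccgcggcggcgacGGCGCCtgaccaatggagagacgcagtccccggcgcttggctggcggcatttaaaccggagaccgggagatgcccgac
Tgfb2 has 2 SMAD boxes, Tgfbr2 has 1, Tgfbr1 has 1 GC-rich element, and Grem1 has 1 of each. Of the 32851 promoters in the table, 42.2% hold CAGAC and 9.59% hold GGCGCC in the same window, so these matches are common and are a description only. Neither motif is in the windows of Bmp4 and Smad3. The AP-1 motif TGANTCA, which 6.75% of promoters hold, is in none of the 6 windows. The TATA box TATAAA is in that of Tgfb2 alone and in 12.4% of all promoters. The G and C content of the windows ran from 53.6% at Tgfb2 to 74.8% at Tgfbr1, against a median of 52.4% over all promoters.

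Of the ligand genes, Bmp2 differed least in the number of peaks. Bmp2, a ligand of the BMP branch (chromosome 2, 133552159 to 133562896), had 4 peaks in the Brg1 cKO list and 4 in the control list, each with a counterpart. Its peaks covered 5592 bases in the Brg1 cKO list and 5072 in the control list. The most significant and widest of them lay at a gene end, with 3521 bp in the Brg1 cKO list (133551771 to 133555291, -log10 p of 8.57) and 3337 bp in the control list (133551836 to 133555172, 8.78). Here and below, values of -log10 p describe a peak within its own list and are not comparable between the lists. A small peak 1.84 kb outside the gene was 794 bp wide in the Brg1 cKO list and 388 bp wide in the control list. The other pairs, 43.0 and 72.7 kb from the gene, were 602 and 675 bp wide in the Brg1 cKO list and 645 and 702 bp wide in the control list.

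Bmp4 is a ligand expressed in mesenchyme around the ureteric bud (chromosome 14, 46383525 to 46390669). It had 5 peaks in the Brg1 cKO list, all with a counterpart. Of its 8 control peaks 6 had a counterpart, beside 74.1% of all control peaks. Most of the gene was covered by a single Brg1 cKO peak of 6257 bp (46384904 to 46391160, -log10 p of 9.66). In the control list the same stretch was called as 2 peaks of 4281 and 1694 bp (46384937 to 46389217, -log10 p of 10.82, and 46389477 to 46391170). Over the whole Brg1 cKO list, 1.45% of peaks joined 2 or more control peaks in this way. The more significant control peak without a counterpart was 795 bp wide and lay 65.9 kb downstream (46317284 to 46318078, 5.50), and the other was 233 bp wide. Peaks of Bmp4 covered 10910 bases in the Brg1 cKO list and 11958 in the control list.

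Bmp7, the BMP ligand of nephron progenitors (chromosome 2, 172868012 to 172940321), had the largest number of control peaks without a counterpart among the 10 genes. It had 22 Brg1 cKO peaks, all with a counterpart, and 30 control peaks, 20 of them with a counterpart (66.7%, 47.2 to 82.7%). Of all control peaks 74.1% had one, which lies inside that interval. The 10 control-only peaks were 604 to 1378 bp wide, 4 inside the gene and 6 outside, and 7 of them fell in the 2 weakest of 5 equal strength classes of the control list. The most significant of them lay 50.7 kb outside the gene (172816942 to 172817827, 886 bp, -log10 p of 7.16). Peaks covered 27920 bases in the Brg1 cKO list and 40545 in the control list, a ratio of 0.689. With only the 61210 most significant control peaks kept, 19 of 24 control peaks of Bmp7 had a counterpart (79.2%), beside 83.6% over that whole list.

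The widest peak of Bmp7 was called differently in the 2 lists. The control list had 1 peak of 8168 bp over the higher-coordinate end of the gene (172933348 to 172941515, -log10 p of 10.89), and 0.058% of control peaks were at least 8 kb wide. The Brg1 cKO list had 2 peaks there, of 3730 and 4645 bp (172933349 to 172937078 and 172937190 to 172941834, the second with -log10 p of 10.26). These covered 8056 of the 8168 control bases, so the stretch stayed almost wholly within called peaks. A further control peak of 2721 bp inside the gene stood over Brg1 cKO peaks of 634 and 1482 bp. Such divided control peaks made up 1.29% of the control list. One Brg1 cKO peak of 611 bp, 18.4 kb outside the gene (172958384 to 172958994), overlapped a control peak whose summit lay nearer to another gene.

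Tgfb2 is the TGF-beta ligand of the list (chromosome 1, 186622787 to 186709697). It had 4 Brg1 cKO peaks, all with a counterpart. Of its 7 control peaks 3 had a counterpart, beside 74.1% of all control peaks. Its listed start lies 3708 bp inside the annotated end of the gene and was inside a peak in both lists. That peak was 1599 bp wide in the Brg1 cKO list (186705019 to 186706617, -log10 p of 9.05), next to another of 1180 bp, and 2962 bp wide in the control list (186703588 to 186706549, 9.49). The most significant control-only peak lay 45.2 kb downstream (186577124 to 186577865, 742 bp, 6.66). Peaks covered 4735 bases in the Brg1 cKO list and 7657 in the control list, the lowest ratio of the 10 genes at 0.618.

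**Figure D2:**
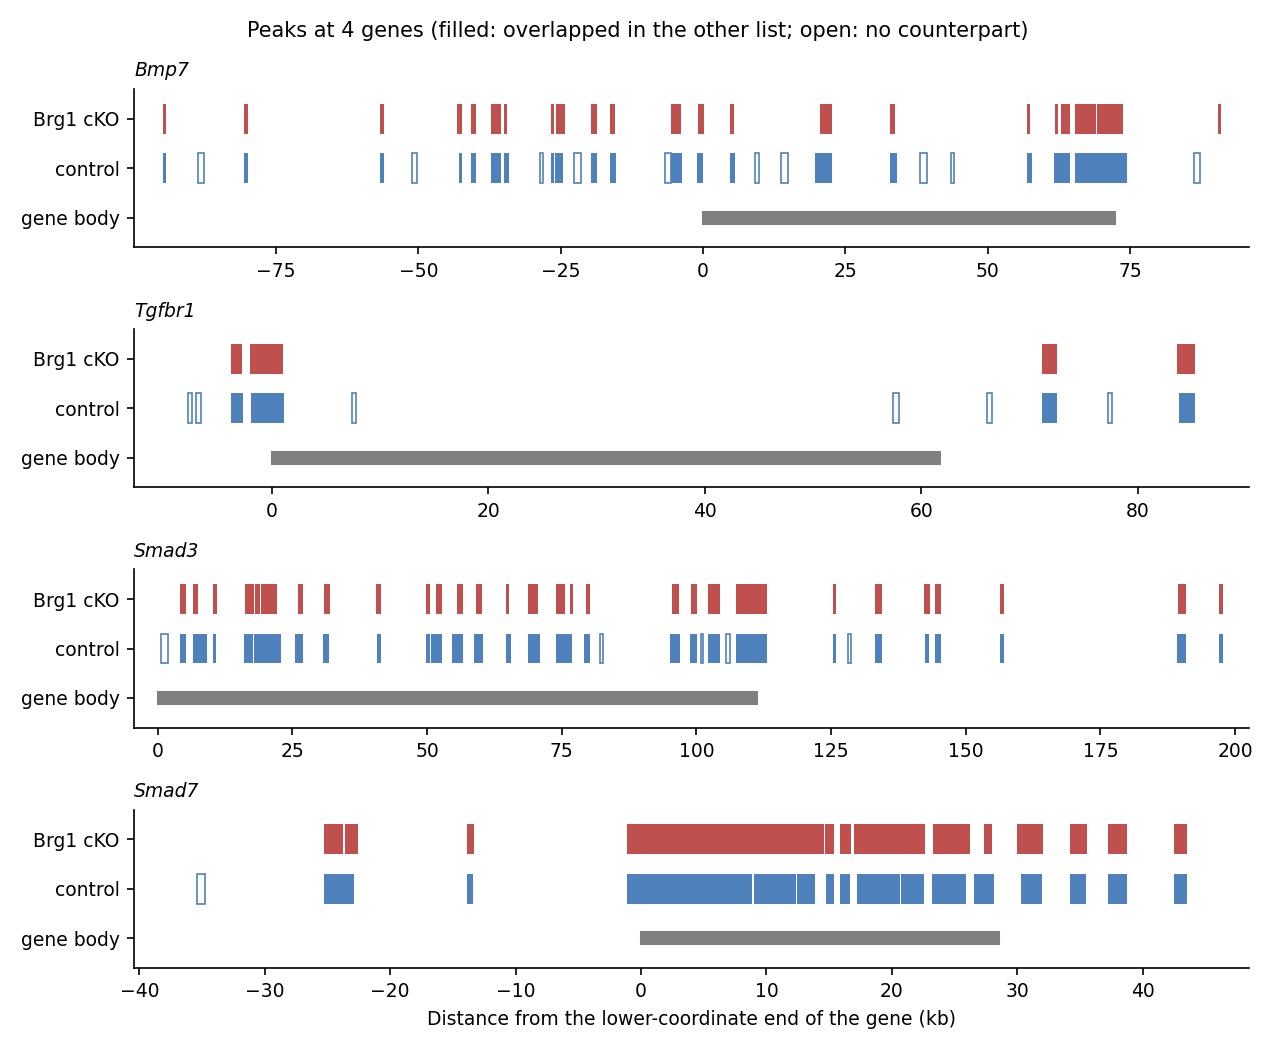
Peaks of the Brg1 cKO list (red, upper row) and the control list (blue, lower row) at Bmp7, Tgfbr1, Smad3 and Smad7, by distance in kb from the lower-coordinate end of the gene (grey bar); open boxes have no counterpart. At Tgfbr1 the 4 wider peaks are in both lists and 6 narrow ones in the control list alone, and at Smad7 a Brg1 cKO peak of 15705 bp stands over 3 control peaks.

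The receptor genes together had 18 Brg1 cKO peaks, all with a counterpart, and 29 control peaks, 18 of them with one (62.1%, 42.3 to 79.3%). Over the whole lists, 94.1% of Brg1 cKO peaks and 74.1% of control peaks had one, and the second value lies inside that interval. At Tgfbr1, the type I receptor of TGF-beta (chromosome 4, 47353222 to 47414926), 4 peaks were called in the Brg1 cKO list and 10 in the control list. The 4 Brg1 cKO peaks were 1026, 3118, 1351 and 1715 bp wide, and the control peaks they overlapped were 1137, 3001, 1341 and 1474 bp wide. The other 6 control peaks were 344 to 510 bp wide, and all 6 fell in the 2 weakest strength classes of the control list. In those classes 61.7% and 43.6% of all control peaks had no counterpart.

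The peak at the start of Tgfbr1 was among the most significant of the control list. Its -log10 p was 10.67 in the Brg1 cKO list (47351175 to 47354292) and 12.22 in the control list (47351318 to 47354318), within the top 5.14% of the Brg1 cKO list and the top 0.983% of the control list. The most significant control-only peak of the gene was 350 bp wide, 15.8 kb downstream (47430520 to 47430869, -log10 p of 4.76).

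Tgfbr2 is the type II receptor (chromosome 9, 116087695 to 116175363). It had 14 Brg1 cKO peaks, all with a counterpart. Of its 19 control peaks 14 had one, beside 74.1% of all control peaks. Its start peak was 2428 bp wide in the Brg1 cKO list (116173761 to 116176188, -log10 p of 9.55) and 2508 bp wide in the control list (116173681 to 116176188, 10.32). The peaks of the gene were narrow, with a median width of 615 bp in the Brg1 cKO list and 608 bp in the control list, against 900 and 838 bp over the whole lists. The most significant control-only peak lay 59.0 kb upstream (116234223 to 116234607, 385 bp, 5.96). Peaks covered 10271 bases in the Brg1 cKO list and 14690 in the control list, a ratio of 0.699.

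At Smad3 the peaks were mostly called in both lists, with less width in the Brg1 cKO list. Smad3 carries the TGF-beta signal to the nucleus (chromosome 9, 63646766 to 63757994). It had 29 Brg1 cKO peaks, all with a counterpart. Of its 33 control peaks 28 had one (84.8%, 68.1 to 94.9%), beside 74.1% of all control peaks. Its peaks covered 38274 bases in the Brg1 cKO list and 49782 in the control list. The control-only peaks held 3482 of these control bases, and 9565 were in uncovered parts of control peaks that had a counterpart. Those uncovered parts were 20.7% of the width of the overlapped control peaks, the highest share of the 10 genes, against 10.1% over the whole list.

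Among peaks of Smad3 that paired 1 to 1, the Brg1 cKO peak was the narrower in 19 of 25, and the median difference was -131 bp. Over all such pairs of the series, 58.1% had the narrower peak in the Brg1 cKO list, with a median difference of -18 bp. The largest difference was at a peak inside the gene that was 876 bp wide in the Brg1 cKO list (63653351 to 63654226) and 2719 bp wide in the control list (63653302 to 63656020). The peak over the start was the widest and most significant in both lists and nearly equal in extent, with 5774 bp in the Brg1 cKO list (63754159 to 63759932, -log10 p of 10.69) and 5799 bp in the control list (63754121 to 63759919, 11.57). The most significant control-only peak lay 17.1 kb upstream (63774885 to 63775462, 578 bp, 5.11). Another, of 1184 bp and 954 bp inside the 3′ end of the gene, was the only control-only peak of the 10 genes at a gene end.

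**Figure D3:**
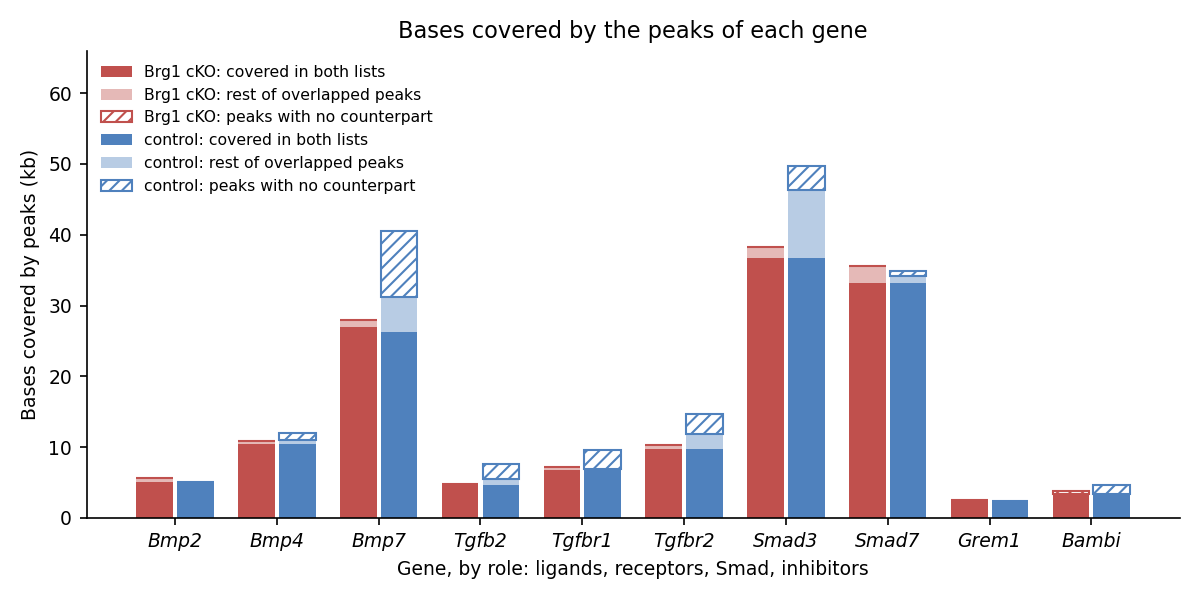
Bases in kb covered by the peaks of each gene, Brg1 cKO (red) left of control (blue), divided into bases covered in both lists (dark), the rest of peaks that overlap the other list (pale) and peaks with no counterpart (hatched). Smad3 has 9565 control bases in the pale part, and Smad7 has 35609 bases in the Brg1 cKO list and 34842 in the control list.

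The inhibitor genes together covered 41973 bases in the Brg1 cKO list and 41843 in the control list. Of their control bases, 7.27% were outside Brg1 cKO peaks, against 28.9% for the ligand genes and 31.9% for the receptor genes. Over the whole control list it was 23.5%. By gene the share was 4.82% at Smad7, 1.32% at Grem1 and 28.6% at Bambi, so the low value was not shared by all inhibitor genes. Among 50 other pathway genes, described below, it was 27.8% for inhibitors and regulators, 11.1% for ligands and 28.7% for receptors. Smad7 held most of the bases of the 3 inhibitor genes. Smad7 is the inhibitory Smad that blocks type I receptors and is itself a target of the pathway (chromosome 18, 75367365 to 75395935). It had 13 Brg1 cKO peaks, all with a counterpart, and 16 control peaks, 15 of them with one (93.8%), beside 74.1% of all control peaks. With overlap of at least 50% of both peaks required, 11 of the 16 had one (68.8%), near the 69.8% of all control peaks.

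Smad7 lay under a broad open stretch in both libraries, divided differently by the peak caller. The widest peak was 15705 bp in the Brg1 cKO list (75366223 to 75381927, -log10 p of 10.68) and 9985 bp in the control list (75366229 to 75376213, 11.52). The Brg1 cKO peak also took in control peaks of 3392 and 1373 bp. It was 1 of 46 Brg1 cKO peaks, 0.0752% of the list, that overlapped 3 or more control peaks, and 1 of 16 (0.0261%) at least 10 kb wide. The next broad peak was 5606 bp in the Brg1 cKO list and 2 peaks of 3432 and 1827 bp in the control list. The reverse was found 24.4 kb from the gene. There the most significant Brg1 cKO peak of the gene (75342118 to 75343635, 1518 bp, -log10 p of 10.73) and a neighbour of 1042 bp stood over 1 control peak of 2411 bp (75342105 to 75344515, 11.23). The single control-only peak was 628 bp wide and 34.9 kb from the gene (75331951 to 75332578, 4.05). Among 9 pairs matched 1 to 1, 2 were narrower in the Brg1 cKO list, beside 58.1% of all such pairs.

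Grem1, which encodes the secreted BMP antagonist gremlin (chromosome 2, 113748675 to 113758648), had 1 peak in each list, at its start. It was 2531 bp wide in the Brg1 cKO list (113756764 to 113759294, -log10 p of 6.82) and 2354 bp wide in the control list (113756972 to 113759325, 7.20). The 2 summits lay 1003 bp apart, where 87.3% of all 1 to 1 pairs had summits within 100 bp. Bambi, a pseudoreceptor that lacks the kinase domain (chromosome 18, 3507011 to 3516404), had 3 Brg1 cKO peaks and 5 control peaks, with 2 of each matched. The peak at its lower-coordinate end was nearly the same in both, with 2714 bp in the Brg1 cKO list (3506743 to 3509456, -log10 p of 11.50) and 2730 bp in the control list (3506733 to 3509462, 11.54). The unmatched Brg1 cKO peak, 517 bp wide and 44.9 kb from the gene (3561190 to 3561706, 4.01), was the only one among the 10 genes. The 3 control-only peaks of Bambi were 209 to 654 bp wide. The most significant of these lay 11.4 kb from the gene (3495513 to 3495721, 5.08). With peaks of -log10 q of at least 2 alone, 1 of 5 control peaks of Bambi had a counterpart, beside 72.4% of all control peaks. A matched Brg1 cKO peak of 602 bp (3509811 to 3510412), with -log10 q of 1.98, fell just under that limit.

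**Figure D4:**
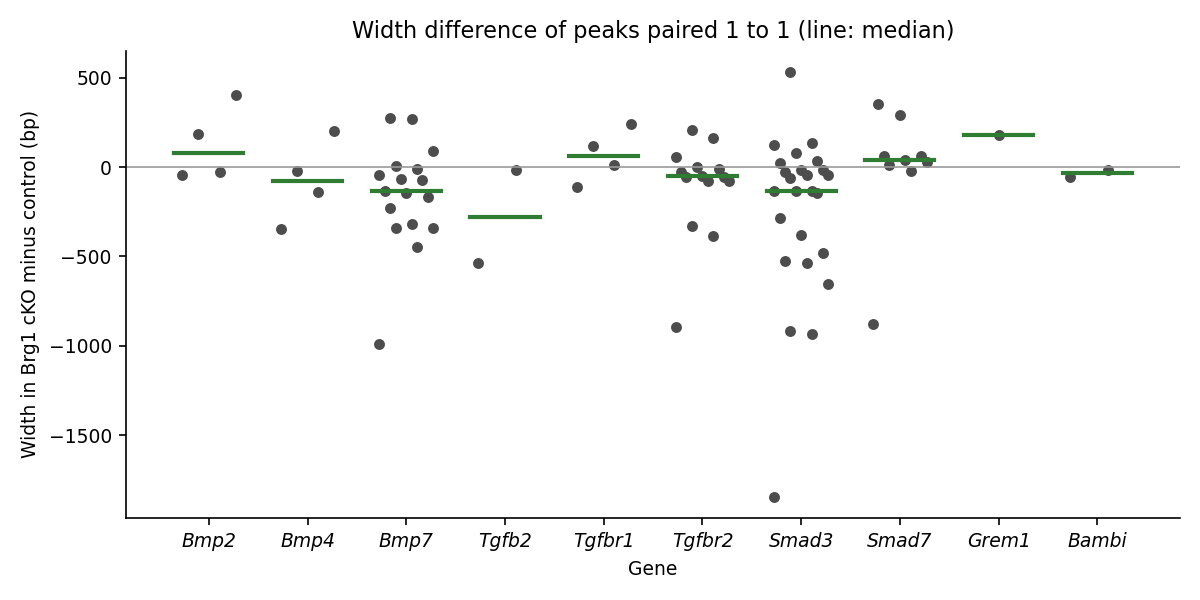
Width in the Brg1 cKO list minus width in the control list, in bp, for each pair of peaks that overlap 1 to 1, by gene; green lines are medians. At Smad3 19 of 25 pairs and at Bmp7 13 of 17 lie below 0, and at Smad7 2 of 9. Over all 1 to 1 pairs of the series 58.1% do.

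Over the 10 genes, 82 pairs of peaks matched 1 to 1. The Brg1 cKO peak was the narrower in 54 of them (65.9%), beside 58.1% of all such pairs of the series. The median width of the member pairs was 930.5 bp in the Brg1 cKO list and 1056 bp in the control list. Over all such pairs it was 925 and 995 bp. The median width of all member peaks ran the other way, 1026 bp in the Brg1 cKO list and 957 bp in the control list, as it did over the whole lists, with 900 and 838 bp. The member control peaks had a median of 599 bp where they had no counterpart and of 1179 bp where they had one. With only the 61210 most significant control peaks kept, the ratio of the medians was 0.911 in place of 1.07.

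Control peaks without a counterpart were mostly weak and mostly away from gene ends. Of the 36, 21 fell in the weakest and 7 in the next of the 5 strength classes of the control list. In the order from the weakest to the strongest class, 21 of 29, 7 of 29, 5 of 26, 3 of 30 and 0 of 19 member control peaks had no counterpart. Over the whole control list the shares were 61.7%, 43.6%, 18.8%, 5.17% and 0.0645%. The member peaks of the Brg1 cKO list without a counterpart were, in the same order, 1 of 21, 0 of 22, 0 of 25, 0 of 18 and 0 of 13, against 21.2%, 7.56%, 0.735%, 0.0899% and 0.00817% of that whole list. The 3 peaks of the second strongest class were the 886 bp peak of Bmp7 given above, a 1212 bp peak inside Bmp7 (172906050 to 172907261, -log10 p of 6.81) and the 742 bp peak of Tgfb2. By position, 1 of 13 control peaks within 1000 bp of a member's end had no counterpart, 13 of 54 other peaks inside the genes and 22 of 66 other peaks outside. Farther than 1000 bp from their ends this was 35 of 120 (29.2%), beside 31% of all control peaks that far from protein-coding gene ends, and the 1 of 13 stood beside 5.9%. In the Brg1 cKO list 0 of 12 member peaks at a gene end had no counterpart, beside 1.07% of the whole list, and the interval of the share with one was 73.5 to 100%. Of the other Brg1 cKO member peaks, 0 of 41 inside the genes and 1 of 46 outside had none, beside 7.51% of all peaks that far from gene ends.

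**Figure D5:**
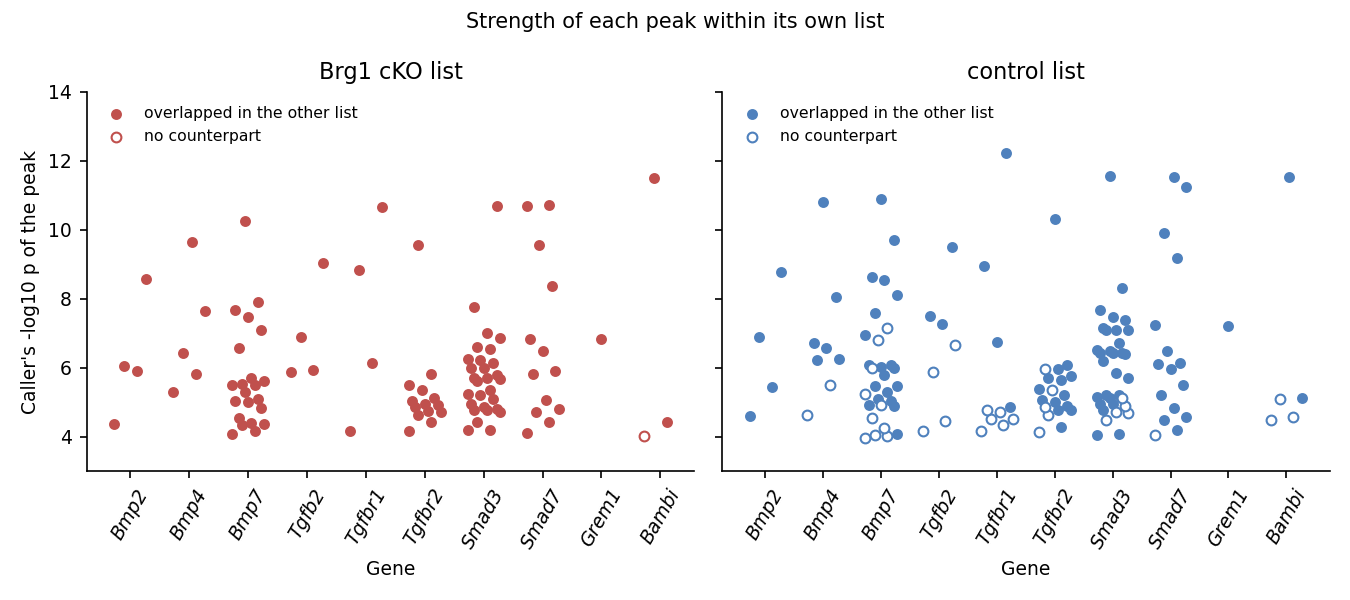
The peak caller's -log10 p of every member peak within its own list, Brg1 cKO left and control right; filled points overlap the other list and open points do not, and heights are not comparable between the lists. Open points in the control list lie between 3.95 and 7.16, and the most significant peak of each gene is filled in both lists.

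The other genes of the pathway were described by a list of 50, all found in the annotation. They had 323 Brg1 cKO peaks, 301 with a counterpart (93.2%, 89.9 to 95.7%), and 386 control peaks, 299 with a counterpart (77.5%, 73.0 to 81.5%). Over the whole lists these shares were 94.1% and 74.1%, each inside its interval here. By role, counterparts were found for 31 of 37 control peaks of ligand genes, 73 of 101 of receptor genes, 52 of 64 of Smad genes, 82 of 115 of inhibitors and regulators and 61 of 69 of target genes. More control-only than Brg1 cKO-only peaks were found at 31 genes and the reverse at 5, where 43.9% and 4.64% of protein-coding genes with a control peak did so. Among the 31 genes of the list with at least 5 control peaks, 22 (71.0%) had more control-only peaks, below the 80.6% of the 5135 such genes. A peak within 1000 bp of a gene end was present at 48 of the 50 genes in both lists, Bmp5 and Inhba, named after their values were seen, being without one. Of all 21883 protein-coding genes, 14851 had such a peak in at least 1 list. At none of the 50 was a gene-end peak in 1 list only. Of the 14851 genes, 0.431% had it in the Brg1 cKO list alone and 2.48% in the control list alone.

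The largest numbers of control-only peaks in this list were at Tgfbr3, Crim1 and Smad6, which also had many control peaks. Counterparts were found for 55.9%, 55.6% and 81.8% of their control peaks, beside 74.1% of all control peaks. By share, Smad6 thus lay above the whole list. Tgfbr3, the co-receptor betaglycan, had 21 Brg1 cKO peaks and 34 control peaks, 19 of the control peaks having a counterpart, and covered 20434 bases in the Brg1 cKO list and 37063 in the control list. Crim1, a transmembrane protein that binds BMPs, had 17 Brg1 cKO and 27 control peaks, and 15 of the control peaks had a counterpart. Smad6, the other inhibitory Smad, had 28 Brg1 cKO and 33 control peaks, 27 of the control peaks with a counterpart.

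The 5 genes with more Brg1 cKO-only peaks were Gdf6, Smad5, Id3, Tgfbi and Msx1, named for that excess. At each of them every control peak had a counterpart. For Smad5, Id3 and Msx1, with 1 Brg1 cKO-only peak each, this followed from how they were chosen. Over the list of 50, 22 of 323 Brg1 cKO peaks had no counterpart, beside 5.92% of the whole Brg1 cKO list. Tgfbi, a matrix protein gene named for its induction by TGF-beta, had 3 unmatched peaks among 14 in the Brg1 cKO list and covered 15879 bases there, against 13824 bases in the control list. Gdf6, a BMP-type ligand, had 2 among 9. Smad5, a transducer of BMP signals, Id3, a BMP target, and the homeobox gene Msx1 had 1 each. Msx1 covered 11743 bases in the Brg1 cKO list and 8748 in the control list.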

How the data were processed

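ATAC-seq peaks were compared between 1 Brg1 cKO and 1 control library of sorted Wnt4-lineage kidney cells. Per the submitters' processing notes, the authors' tools included Genrich, SAMtools and Trim Galore, with mm10 as genome. Not given in the sources used here: aligner, versions, settings, and treatment of duplicates, mitochondrial reads and transposase offset. For each peak, the deposited lists give a score capped at 1000 (not used), a signal (area under the caller's curve, at least 200) and the authors' -log10 p and -log10 q. These depend on depth and are not comparable between the lists. They are printed to describe single peaks and were otherwise used only to rank or filter peaks within a list. The lowest -log10 q was 1.35 in the Brg1 cKO and 1.42 in the control list. Depth is unknown, and a shallower library yields fewer weak peaks.

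Coordinates are mm10, 1-based. Gene positions are those of RefSeq (GRCm38.p6). Peaks were ranked by p, ties by area, into 5 equal classes. Counting was checked on simulated lists. Python 3.11.15, pandas 2.3.3 and SciPy 1.17.1 were used. All members are named. Of the wider list, named are the 3 genes with most control-only peaks or the largest difference, those with more Brg1 cKO-only peaks, and those with a gene-end peak in 1 list. Of each member's peaks, the most significant, the widest and the most significant unmatched one are given; other peaks were chosen after their values were seen. The members and lists were chosen with earlier results of these data known.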

Additional observations from a re-analysis of the deposited data

How the results depend on the processing

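No paired analysis was possible because each genotype had 1 library. The pooled values were recomputed under 7 other settings. The share of control peaks with a counterpart ran from 65.4 to 85.6%, the ratio of peak numbers from 0.692 to 0.952 and the ratio of bases covered from 0.762 to 0.913. With overlap of at least 50% of both peaks, 87.9% of Brg1 cKO member peaks had a counterpart, and with peaks of -log10 q of at least 2 alone 100% did. With only the 61210 most significant control peaks kept, counterparts were found for 92.9% of Brg1 cKO and 85.6% of control member peaks and for 86.6% of control peaks of the wider list. Over the whole lists the shares under that setting were 84.3% of Brg1 cKO and 83.6% of control peaks. The ratio of median widths, 1.07, was 0.911 there, and 0.981 when any annotated gene could take a peak, which left 56 Brg1 cKO and 76 control peaks; the cause of the second was not tested. Counts per gene are small, and differences between members were not tested.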
